A study of Mus musculus with 6 samples.

Results

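Expression of p53 and of genes it controls was examined in hematopoietic stem and progenitor cells (HSPCs) with and without ING4. The 10 genes, of 49315 counted, were Trp53, which encodes p53, its inhibitors Mdm2 and Mdm4, and the p53 target genes Bbc3, Bax, Ccng1, Phlda3, Zmat3, Gadd45a and Sesn2. They were chosen by name from what is known of the pathway, and each symbol matched 1 gene identifier in the GENCODE annotation of GRCm38. RNA was sequenced in bulk from LT-HSCs, ST-HSCs and MPPs, the long-term stem cells, short-term stem cells and multipotent progenitors of the bone marrow. There was 1 library of each population from wild-type (WT) mice, described in the study's methods as C57BL/6 controls of 8 to 12 weeks, and 1 of each from ING4-/- mice, which lack the chromatin reader ING4, came from a colony kept on site, and whose strain background, and age in the sequenced pools, were not given in the sources used here. Marrow of 8 to 10 mice of a genotype was pooled, lineage depleted and sorted to 1000 to 10000 cells. No treatment is described for the mice whose marrow was sequenced. Each genotype therefore had 3 libraries, the populations stood in for replicates, and p-values measure the spread between populations of pooled marrow rather than between mice. Where 3 values of a genotype are given, they are in the order LT-HSCs, ST-HSCs, MPPs.

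The p53 protein is a transcription factor that is kept low by MDM2, a ubiquitin ligase that marks it for degradation, and by MDM4, a relative of MDM2 that binds the activation domain of p53 and blocks it. Damage to DNA activates kinases such as ATM and ATR, which free p53 from both inhibitors, and p53 then raises genes that arrest the cell cycle, repair DNA, limit oxidants or kill the cell. In blood stem cells p53 is known for limiting proliferation and for removing damaged cells, and MDM2 and MDM4 are needed to hold it in check there. ING4 binds methylated histone H3 and works with the HBO1 acetyltransferase complex, and it has been linked to p53 acetylation in other cell types.

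Mdm4 fell in ING4-/- HSPCs. Its read counts scaled to library size (CPM, TMM-normalized) were 9.30-fold lower than in WT, while Trp53 and Ccng1 were about doubled and Mdm2 did not pass the test. The difference for Mdm4 was called under each of the 16 alternative fits tried. Its size ran from 4.34-fold, with a trend on gene length removed, to 13.1-fold, with at least 10 counts required in every library. Those for Trp53 and Ccng1 were not called in every fit. Neither was called when at least 10 counts were required in every library, with no background taken off. Nor was either called when the background of the WT libraries was subtracted, which also changed the scaling between libraries. In sorted bulk samples, fewer cells that express a gene and less of its RNA per cell cannot be told apart.

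The deposited values were raw counts, 7839326 to 9363442 per library in WT and 35596876 to 39192588 in ING4-/-. Genes for olfactory and vomeronasal receptors, which blood cells are not known to use, had 18.1 to 22.7 counts per kb of exon in WT and at most 0.0851 in ING4-/-. If every gene received it according to its exon length, the background made up 22.6% to 33.4% of the WT counts and at most 0.028% of the ING4-/- counts, so genotype and background cannot be told apart for genes near that level. This estimate does not hold for every gene. In WT LT-HSCs Phlda3 had 2 counts where it gives 34.9, and Bbc3 had 4 where it gives 47.5. The ING4-/- libraries had gaps of another kind. Of 9762 genes with at least 100 counts in ING4-/- ST-HSCs and MPPs, 641 (6.57%) had 3 counts or fewer in ING4-/- LT-HSCs, against 6 of 11983 (0.0501%) for the same comparison in WT. For ST-HSCs and MPPs these shares were 2.45% and 1.47% in ING4-/-, and 0% for both in WT. Ing4 itself had 247, 162 and 247 counts in WT and 0, 24 and 76 in the ING4-/- libraries, where the background alone gives 119.1, 120.9 and 96.2 in WT. On the log2 scale it differed by -4.49 (standard error, SE, 1.56, adjusted p = 0.0373, and 0.0783 with the population as a block), and a same-strand gene covers 34.9% of its exonic bases. The sort markers Kit, Ly6a, Cd34 and Slamf1 were above 3 counts in every library, and Cd48 was at 0 in ING4-/- LT-HSCs only. Among markers of other cells, the B cell genes Cd79a, Pax5 and Ebf1 were at 0 in each ING4-/- library, as were Cd3e and Klrd1 of the T and NK cells. Cd3d was at 0 in ING4-/- LT-HSCs and ST-HSCs, Elane of granulocytes in ING4-/- MPPs, Klrd1 also in WT LT-HSCs, and Gp1bb of megakaryocytes in WT LT-HSCs and MPPs. The summed CPM of the erythroid genes Hba-a1, Hbb-bs, Klf1 and Epor was 37.3, 29.7 and 15.2 in WT and 129.2, 159.5 and 45.7 in ING4-/-, higher in ING4-/- in each population and without overlap. With the background subtracted the sums were 40.9, 29.6 and 9.45 against 115.4, 134.0 and 39.4, again higher in ING4-/- in each population. For 5 granulocyte genes it was 15.7, 43.7 and 177.9 in WT and 72.5, 170.6 and 301.9 in ING4-/-, again higher in ING4-/- in each population. The sums of the 5 sort markers were 797.7, 746.0 and 1541 in WT and 1517, 1378 and 2861 in ING4-/-. With the background subtracted they were closer, 1134, 1116 and 2120 against 1355, 1158 and 2464. The B cell genes Cd79a, Cd79b, Pax5 and Ebf1 summed to 56.0 to 60.7 in WT and 64.6 to 112.1 in ING4-/-, there from Cd79b alone. The sum was 54.2 to 145.1 and 48.2 to 279.6 for 5 T and NK cell genes and 913.7 to 1048 and 912 to 1741 for 5 megakaryocyte genes. For 5 genes of dissociation stress the sums were 3919, 3088 and 5247 in WT and 3987, 1727 and 2214 in ING4-/-. With the background subtracted they were 5965, 4978 and 7397 against 3561, 1451 and 1906, lower in ING4-/- in each population. The part of these cells, of stress and of the gaps in the results below was not tested.

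The promoters of the genes called in the comparison of genotypes, and of Mdm2 beside Mdm4, are shown because p53 can act on its own regulators and targets through sites near their starts. They are the 250 bases before a RefSeq transcript start on GRCm38.p6, read 5′ to 3′ on the gene's strand. Capitals mark exact matches to the p53 half-site described after them. They also mark both parts of the pair of half-sites with the fewest mismatches, so a capital stretch may itself hold mismatches. Mdm4 has 2 starts in the table, and the second window listed lies at the 5′ end of the annotated gene.
Ccng1, chr11:40755287-40755536, minus strand: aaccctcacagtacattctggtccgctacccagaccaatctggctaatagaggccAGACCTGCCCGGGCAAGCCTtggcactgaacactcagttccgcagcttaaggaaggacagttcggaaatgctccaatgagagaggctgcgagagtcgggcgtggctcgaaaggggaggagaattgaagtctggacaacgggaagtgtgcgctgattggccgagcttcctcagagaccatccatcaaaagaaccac
Trp53, chr11:69580109-69580358, plus strand: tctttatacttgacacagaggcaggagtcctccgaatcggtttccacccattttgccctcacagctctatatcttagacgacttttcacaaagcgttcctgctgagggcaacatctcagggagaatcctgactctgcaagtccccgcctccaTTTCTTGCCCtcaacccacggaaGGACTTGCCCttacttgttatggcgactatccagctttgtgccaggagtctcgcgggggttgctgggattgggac
Mdm2, chr10:117710759-117711008, minus strand: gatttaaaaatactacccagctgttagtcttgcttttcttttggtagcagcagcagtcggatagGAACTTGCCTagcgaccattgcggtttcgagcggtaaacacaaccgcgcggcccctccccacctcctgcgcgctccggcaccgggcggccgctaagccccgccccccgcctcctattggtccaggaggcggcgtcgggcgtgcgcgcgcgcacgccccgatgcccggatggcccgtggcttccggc
Mdm4 (internal start), chr1:133025417-133025666, minus strand: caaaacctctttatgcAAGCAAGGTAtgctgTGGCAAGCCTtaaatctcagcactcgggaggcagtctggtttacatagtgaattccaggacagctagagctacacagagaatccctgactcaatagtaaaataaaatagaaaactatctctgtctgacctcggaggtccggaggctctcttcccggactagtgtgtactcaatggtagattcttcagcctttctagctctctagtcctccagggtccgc
Mdm4 (gene 5′ end), chr1:133030588-133030837, minus strand: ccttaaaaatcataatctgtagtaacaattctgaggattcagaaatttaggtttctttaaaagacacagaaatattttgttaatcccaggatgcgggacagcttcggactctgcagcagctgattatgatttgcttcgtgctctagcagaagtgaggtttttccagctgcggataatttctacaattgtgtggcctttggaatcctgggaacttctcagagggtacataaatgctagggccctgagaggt

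The motif searched was the p53 consensus half-site of 10 bases, which reads the same on both strands, and pairs of half-sites up to 13 bases apart with at most 3 mismatches outside the fixed C and G of each core. Windows of 300 bases, 250 before and 50 after the start, were searched. An exact half-site stood in 5 of the 12 windows found for 9 of the genes, and in 8.36% of all 32851 windows. A pair stood in 7 of the 12 windows and in 15.6% of all windows. The Ccng1 window held the closest pair, with no base between its parts and 1 mismatch, starting 195 bases before the transcript start. The Trp53 and internal Mdm4 windows held pairs with 3 mismatches, the Mdm2 window held a single half-site 186 bases before the start, and neither form was found in the window at the 5′ end of Mdm4, in 1 of 3 windows of Bbc3 or in those of Phlda3 and Sesn2. Such matches describe the sequence only.

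To find which of these genes differed between genotypes, edgeR's quasi-likelihood test was run across all genes on 3 ING4-/- against 3 WT libraries. The threshold for a call was an adjusted p of 0.05 together with a log2 fold change beyond 1 in either direction. Of the 10 genes, all tested, Trp53 and Ccng1 were called higher and Mdm4 lower, where 7.98% of the 31001 genes tested were called higher and 56.7% lower. The median log2 fold change was 0.96 for the 10 genes and -6.85 for all genes tested, most of which were close to 0 in ING4-/-. When at least 10 counts were required in every library, 7 of the 10 genes and 9673 of all genes were left. None of the 7 was then called higher and Mdm4 was called lower, where 8.3% of genes were called higher and 9.68% lower, and the medians were 0.38 and 0.020. With the background subtracted from every count, 8 of the 10 genes were tested, none was called higher and Mdm4 was called lower, where 5.6% of genes were called higher and 38.7% lower. The unadjusted p was under 0.05 for 3 of the 7 genes and for 1 of the 8 in these fits, and DESeq2's Wald test on the deposited counts called none of the 10 higher and 2 lower, and 4.9% and 59.8% of all genes. In CPM, 6 of the 10 genes had groups that did not overlap, as did 74.9% of all genes tested.

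**Figure D1:**
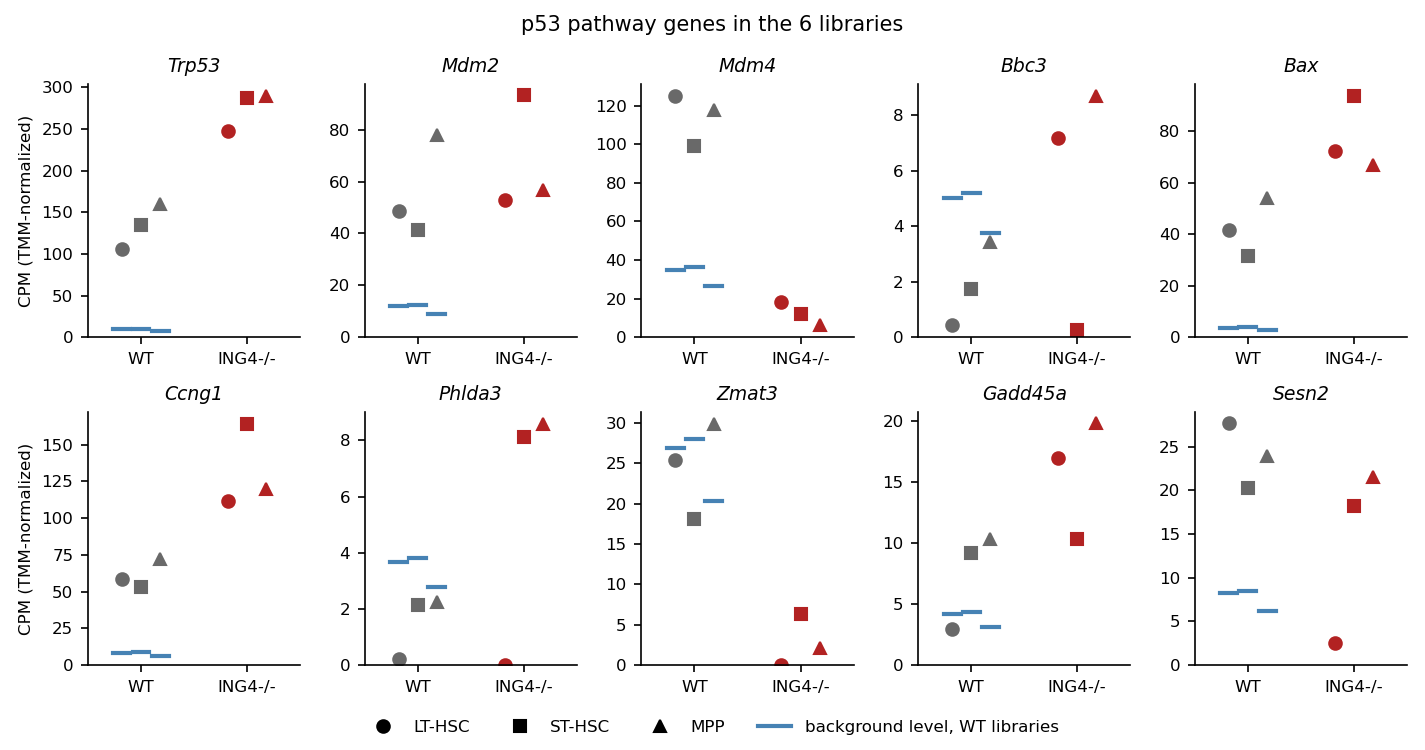
TMM-normalized CPM (vertical axes, linear and from 0) of the 10 genes in the 3 WT (grey) and 3 ING4-/- (red) libraries, with the marker shape giving the population and blue bars the level the WT background alone would give. Mdm4 lay between 98.9 and 125.0 in WT and between 6.19 and 18.3 in ING4-/-, and the WT libraries of Bbc3 and Phlda3 lay below their background bars.

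Trp53 lies on chromosome 11 of GRCm38 (69580359 to 69591873, plus strand). It had 1001, 1254 and 1624 counts in WT and 7741, 9074 and 9809 in ING4-/-, which were 105.4, 135.0 and 159.3 CPM against 247.3, 286.9 and 289.2 CPM. All ING4-/- libraries were above all WT libraries, and in both genotypes LT-HSCs had the lowest level. The background corresponds to 90.5, 92.0 and 73.2 of the WT counts, at most 9.04% of them. Mean CPM was 133.3 ± 27.0 (SD, n = 3) in WT and 274.5 ± 23.5 (SD, n = 3) in ING4-/-, or 1.04 on the log2 scale (SE 0.211, adjusted p = 0.00321). This difference was 0.54 with the 10-count minimum (adjusted p = 0.0743) and 0.33 with the background subtracted (adjusted p = 0.244), and without WT LT-HSCs it was 0.86, under the fold minimum.

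Mdm2 lies on chromosome 10 (117688888 to 117710758, minus strand). It had 464, 384 and 796 counts in WT and 1661, 2949 and 1931 in ING4-/-. In CPM these were 48.9, 41.3 and 78.1 against 53.1, 93.3 and 56.9, so the groups overlapped, with WT MPPs above ING4-/- LT-HSCs and MPPs. The mean CPM was 56.1 ± 19.4 (SD, n = 3) and 67.8 ± 22.2 (SD, n = 3), or 0.27 on the log2 scale (SE 0.372, adjusted p = 0.557). Its sign turned with the scaling, to -0.070 with DESeq2's size factors, and it was -0.21 with the background subtracted.

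Mdm4 lies on chromosome 1 (132959484 to 133030561, minus strand) and shares no exonic base with another annotated gene. Its counts were 1187, 919 and 1202 in WT and 574, 387 and 210 in the ING4-/- libraries, although those were sequenced more deeply. In CPM these were 125.0, 98.9 and 117.9 against 18.3, 12.2 and 6.19, and the groups lay far apart. The mean was 114.0 ± 13.5 (SD, n = 3) in WT and 12.3 ± 6.08 (SD, n = 3) in ING4-/-, or -3.22 on the log2 scale (SE 0.450, adjusted p = 7.0e-04). The background corresponds to 331.2, 336.4 and 267.7 of the WT counts, between 22.3% and 36.6% of them. With it subtracted, the means were 123.4 ± 18.9 (SD, n = 3) and 10.6 ± 5.53 (SD, n = 3), and the log2 fold change was -3.54 (adjusted p = 0.00216). Across the alternatives it stayed between -3.72 and -2.12, with adjusted p of at most 0.0251, and leaving out each library in turn it stayed between -3.60 and -2.87.

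Gene length moved with the difference between genotypes. With the 10-count minimum, the median exonic length was 7592.5 bases for the 936 called lower, 1662 for the 803 called higher and 3975 for all 9673. Mdm4, with 14798 exonic bases, is the longest of the 10 genes and Zmat3, with 11435, the next. When the trend on length was removed from each library, the log2 fold change of Mdm4 was -2.12 (SE 0.423, adjusted p = 0.0153) and Mdm4 was still called. Those of Trp53 and Ccng1 were 0.43 and 0.36, and Bax and Gadd45a turned to -0.31 and -0.044, with none of these called.

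**Figure D2:**
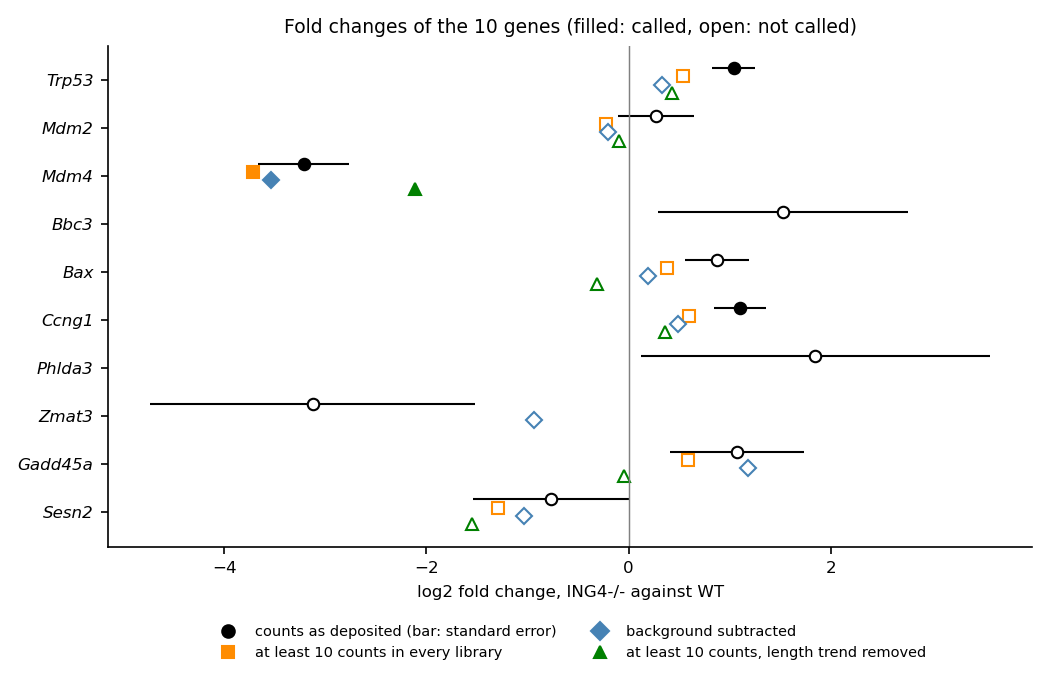
Log2 fold change of ING4-/- against WT (horizontal axis) for the 10 genes in the fit of the deposited counts (black, bars are standard errors, n = 3 libraries per genotype) and in 3 other fits, with filled symbols for called genes. Mdm4 is filled in each of the 4 fits, from -3.72 to -2.12, and Trp53 and Ccng1 are filled in the fit of deposited counts alone.

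Ratios of genes within a library do not depend on how libraries are scaled. The counts per kb of Mdm4 over those of Mdm2 were 0.877, 0.820 and 0.517 in WT and 0.118, 0.0450 and 0.0373 in ING4-/-. The ratio was 12.3-fold higher in WT, with no overlap (two-sided exact permutation test on log2 ratios, p = 0.1, the smallest that 3 against 3 libraries can give), and 11.3-fold higher with the background subtracted. Mdm4 over Trp53 was 21.2-fold higher in WT (exact permutation test, p = 0.1) and 16.2-fold with the background subtracted. The genes of a ratio differ in length, and in the fit with the length trend removed the fitted differences correspond to 4.07-fold for Mdm4 over Mdm2 and 5.83-fold for Mdm4 over Trp53, with no test of either. Mdm2 over Trp53 was 0.335 ± 0.0793 (SD, n = 3) in WT and 0.196 ± 0.0554 (SD, n = 3) in ING4-/-, with overlapping groups (exact permutation test, p = 0.2). The ratios of the called and the uncalled target to Trp53 overlapped between genotypes. Ccng1 over Trp53 was 0.538 ± 0.0938 (SD, n = 3) and 0.551 ± 0.0956 (SD, n = 3), and Bax over Trp53 was 0.827 ± 0.213 (SD, n = 3) and 0.727 ± 0.124 (SD, n = 3), with exact permutation p of 0.8 and 0.5. Over the 5 ratios the Benjamini-Hochberg adjusted p was at least 0.25.

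**Figure D3:**
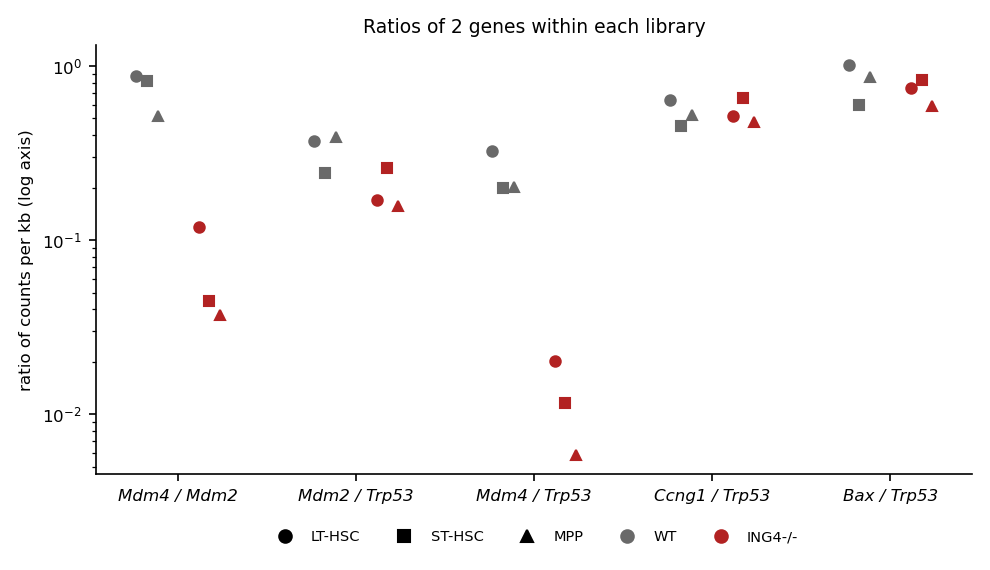
Ratio of the counts per kb of exon of 2 genes (vertical axis, log scale) in each WT (grey) and ING4-/- (red) library, with marker shape giving the population. The Mdm4 ratios separate the genotypes, from 0.517 to 0.877 against 0.0373 to 0.118 over Mdm2, and the Ccng1 and Bax ratios over Trp53 overlap.

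Ccng1, a p53 target whose cyclin G1 recruits a phosphatase that acts on MDM2, lies on chromosome 11 (40748552 to 40755311, minus strand). It had 555, 493 and 737 counts in WT and 3489, 5191 and 4055 in ING4-/-, or 58.5, 53.1 and 72.3 CPM against 111.5, 164.2 and 119.5 CPM. The groups did not overlap, and ING4-/- ST-HSCs stood highest. Mean CPM was 61.3 ± 9.92 (SD, n = 3) and 131.7 ± 28.4 (SD, n = 3), or 1.10 on the log2 scale (SE 0.255, adjusted p = 0.00616). It was 0.60 with the 10-count minimum (adjusted p = 0.130) and 0.49 with the background subtracted (adjusted p = 0.165). It fell under the fold minimum without ING4-/- ST-HSCs (0.94) or WT ST-HSCs (0.96).

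Phlda3, which encodes a small protein that competes with AKT for membrane lipids, lies on chromosome 1 (135766119 to 135769136, plus strand). It had 2, 20 and 23 counts in WT and 0, 257 and 291 in ING4-/-. At 34.9, 35.4 and 28.2 counts, the estimated WT background lies above each count seen, so expression in WT was not seen above it. With 2 counts in LT-HSCs the estimate is too high for this gene and sets no limit of detection there. In CPM the values were 0.211, 2.15 and 2.26 against 0, 8.13 and 8.58, with LT-HSCs lowest in both genotypes. The log2 fold change was 1.85 (SE 1.73, adjusted p = 0.387).

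Bbc3 encodes PUMA, a BH3-only protein that starts mitochondrial apoptosis, and lies on chromosome 7 (16308393 to 16318205, plus strand). It had 4, 16 and 35 counts in WT and 225, 8 and 295 in ING4-/-, or 0.421, 1.72 and 3.43 CPM against 7.19, 0.253 and 8.70 CPM. ING4-/- ST-HSCs were below every WT library and the other ING4-/- libraries above them. The background corresponds to 47.5, 48.3 and 38.4 counts in WT, again above each count. The log2 fold change of 1.53 (SE 1.24, adjusted p = 0.320) did not pass the test.

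Bax encodes the pore-forming protein of mitochondrial apoptosis and lies on chromosome 7 (45461697 to 45466898, minus strand), where a same-strand gene covers 12.2% of its exonic bases. It had 396, 291 and 550 counts in WT and 2267, 2959 and 2265 in ING4-/-, or 41.7, 31.3 and 54.0 CPM against 72.4, 93.6 and 66.8 CPM. The groups did not overlap in CPM and did overlap with the background subtracted. Mean CPM was 42.3 ± 11.3 (SD, n = 3) and 77.6 ± 14.1 (SD, n = 3). The log2 fold change was 0.87 (SE 0.313, adjusted p = 0.0417), below the fold minimum, so Bax was not called.

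Zmat3, which encodes an RNA-binding zinc finger protein that regulates splicing and mRNA stability, lies on chromosome 3 (32334792 to 32366014, minus strand). It had 241, 168 and 304 counts in WT and 0, 200 and 70 in ING4-/-. These were 25.4, 18.1 and 29.8 CPM against 0, 6.33 and 2.06 CPM, without overlap. The background corresponds to 255.9, 259.9 and 206.9 counts in WT, so that WT MPPs alone lay above it. On the log2 scale the difference was -3.12 (SE 1.61, adjusted p = 0.130) on the deposited counts and -0.93 with the background subtracted.

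Gadd45a, a stress sensor that binds cell cycle and repair proteins, lies on chromosome 6 (67035096 to 67037457, minus strand). An antisense gene covers 19.1% of its exonic bases, and whether counting used strand is not given in the sources used here. It had 28, 85 and 105 counts in WT and 530, 326 and 674 in ING4-/-, or 2.95, 9.15 and 10.3 CPM against 16.9, 10.3 and 19.9 CPM. WT MPPs and ING4-/- ST-HSCs were at nearly the same level. Its difference was 1.07 on the log2 scale (SE 0.660, adjusted p = 0.196).

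Sesn2, whose sestrin restrains mTORC1 and oxidants, lies on chromosome 4 (132492032 to 132510501, minus strand). It had 263, 188 and 244 counts in WT and 78, 577 and 732 in ING4-/-. In CPM these were 27.7, 20.2 and 23.9 against 2.49, 18.3 and 21.6, so that ING4-/- LT-HSCs stood far below the other 5 libraries. The difference was -0.76 on the log2 scale (SE 0.778, adjusted p = 0.427), and it was -0.24 without ING4-/- LT-HSCs. With the background subtracted the groups did not overlap, at 29.88, 19.11 and 25.15 CPM against 2.23, 15.33 and 18.58. The difference was then -1.04 (adjusted p = 0.382).

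On the scale of CPM per kb of exon, which allows levels of different genes to be set side by side, Trp53, Bax and Ccng1 were the highest of the 10 in both genotypes. In WT the means were 32.9 ± 6.68 (SD, n = 3) for Trp53, 26.9 ± 7.19 for Bax, 17.5 ± 2.83 for Ccng1, 11.1 ± 3.83 for Mdm2, 7.70 ± 0.911 for Mdm4 and 6.90 ± 1.07 for Sesn2. Gadd45a (4.23 ± 2.24), Zmat3 (2.14 ± 0.518), Phlda3 (0.988 ± 0.739) and Bbc3 (0.875 ± 0.711) followed. Neighbours in this order overlapped between libraries, except Zmat3 and Phlda3, and these overlapped too with the background subtracted (0, 0 and 1.18 against 0 in each WT library). In ING4-/- the order was Trp53 (67.9 ± 5.82), Bax (49.2 ± 8.96), Ccng1 (37.5 ± 8.08), Mdm2 (13.4 ± 4.37), Gadd45a (8.90 ± 2.78), Sesn2 (4.06 ± 2.93), Phlda3 (3.57 ± 3.10), Bbc3 (2.53 ± 2.12), Mdm4 (0.828 ± 0.411) and Zmat3 (0.245 ± 0.282). Here Trp53 stood clear of Bax and Ccng1 clear of Mdm2, and the other neighbours overlapped. By these means Mdm4 stood next to Mdm2 in WT and below all but Zmat3 in ING4-/-. Single libraries differed from this order. In ING4-/- LT-HSCs Mdm4 (1.24) lay above Sesn2 (0.717) and Phlda3 (0), and in ING4-/- ST-HSCs (0.827) above Bbc3 (0.119).

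Whether the genes differed along the path from LT-HSCs to MPPs was tested in a fit with genotype and population, in which the 2 genotypes serve as replicates. None of the 10 genes was called across populations, and 0% of the 31001 genes tested were. By edgeR's quasi-likelihood test 0 of the 10 and 425 of all genes had an unadjusted p under 0.05, and by DESeq2's likelihood ratio test 1 of the 10 and 392 of all genes did, with 4 genes called and none of the 10. The 1 gene was Phlda3 (unadjusted p = 0.0345, adjusted p = 1), named after its value was seen. The fitted log2 difference of MPPs from LT-HSCs was 0.41 for Trp53 (unadjusted p = 0.230) and -0.78 for Mdm4 (unadjusted p = 0.354). Within a genotype there was 1 library per population, so the values of each population have no replicate check.

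In all 3 populations Trp53, Bax, Ccng1 and Gadd45a had more CPM in ING4-/- than in WT, and fewer were seen for Mdm4, Zmat3 and Sesn2. For Mdm4 the log2 ratio of ING4-/- to WT was -2.76, -3.01 and -4.23. For Trp53 it was 1.23, 1.09 and 0.86, and for Ccng1 it was 0.93, 1.63 and 0.72. With the background subtracted the Trp53 ratios were 0.59, 0.24 and 0.21 and the Mdm4 ratios -3.07, -3.31 and -4.59, and Ccng1, Gadd45a and Sesn2 kept their signs in each population. Bax did not, with 0.15, 0.81 and -0.33, nor did Zmat3, with 0, 5.88 and -2.86. Over the 9673 genes above the 10-count minimum the median ratio was 0.55, 0.59 and 0.37, so that the Trp53 ratios on deposited counts lay above these medians by less than 1 on the log2 scale in every population.

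By Pearson's r of log2 CPM over the 6 libraries, the genes most like Trp53 among the 9673 were Actg1 (0.999), a cytoplasmic actin, Pomp (0.999), a proteasome assembly factor, Arl6ip1 (0.999), a protein of the endoplasmic reticulum, Ntmt1 (0.998), an N-terminal methyltransferase, and Hnrnpl (0.998), an RNA-binding protein. Of the other genes of the 10 that passed the minimum, Ccng1 had 0.94, Bax 0.87, Gadd45a 0.83, Mdm2 0.51, Sesn2 -0.41 and Mdm4 -0.94. The 6 points fall into the 2 genotypes, which also differ in depth and background, so these values describe that split and no more.

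The rest of the pathway was read from a list of 59 genes in 8 roles, of which 57 could be tested and 2, Cdkn2a and Sco2, could not. There were 8 calls of a higher and 14 of a lower level, with a median log2 fold change of -0.72, against 7.98% and 56.7% of all genes. With DESeq2's size factors, which move the median of all genes by -0.32, the counts were 3 and 18 (4.33% and 58.3% of all genes), and with upper-quartile normalization, which moves it by 0.50, they were 12 and 10 (14.7% and 55.1%). The 8 genes called higher all had at least 10 counts in every library, and 6 of the 14 called lower did. In the fit with that minimum, 36 genes of the list were tested, with 2 calls of a higher and 9 of a lower level and a median of -0.16, where 8.3% and 9.68% of all genes were called. With the background subtracted, 47 were tested, with 4 and 8 such calls and a median of -0.45, where the shares of all genes were 5.6% and 38.7%. With both the minimum and the removal of the length trend 0 were called higher and 3 lower, which were Atm, Cdkn1a and Ddit4, where 3.93% and 4.78% of all genes were called. Of these, Ddit4 was not called with the background subtracted.

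Counts for the roles are on the deposited counts, where 7.98% of all genes were called higher and 56.7% lower. Among the kinases and cofactors that act on p53, 0 of 11 were called higher and 3 lower. Atm, the kinase that answers double-strand breaks, had 971, 793 and 706 counts in WT and 25, 125 and 266 in ING4-/-, or -4.35 as log2 fold change (SE 0.821, adjusted p = 0.00226). ING4-/- LT-HSCs were the lowest and the groups were far apart. Like Mdm4, Atm was called in each of the 16 alternative fits, between -5.14 and -3.77. Atr, the kinase that answers stalled replication forks, had a log2 fold change of -1.83 (adjusted p = 0.0225) that was -0.072 with the length trend removed. Ep300, the acetyltransferase p300 that acetylates p53, had -2.81 (adjusted p = 0.0251) and -1.84 (adjusted p = 0.159) in that fit. These are long genes, with 10338 (Atm), 23629 (Atr) and 14273 (Ep300) exonic bases. Of the 3 genes of negative feedback, Cop1, a ubiquitin ligase for p53, was called lower (-2.31, adjusted p = 0.0216) and was not called with the background subtracted (adjusted p = 0.0931). The p53 relatives Trp63 and Trp73, with the targets Pmaip1, Gls2 and Rprm, make up the 5 genes called lower whose ING4-/- libraries each held 3 counts or fewer, and they are named after their values were seen. For Trp63 the WT counts were 142, 271 and 307 where the background gives 187.8, 190.8 and 151.8. The WT counts of Trp73 (13, 21 and 23) and Pmaip1 (20, 44 and 47) lay below their estimated background in each library. Those of Gls2 (117, 77 and 52) and Rprm (47, 11 and 14) did so in ST-HSCs and MPPs. Expression of these genes in WT was not seen above the estimate there, which at 123.9, 125.8 and 100.1 counts was too high for Trp73.

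Among 9 genes of cell cycle arrest, 0 were called higher and 3 lower, against 7.98% and 56.7% of all genes. Besides Cdkn1a and Rprm, the gene called lower was Plk3, a polo-like kinase named after its values were seen, whose WT counts of 18, 30 and 19 lay below the background of 56.6, 57.5 and 45.8. Neither Rprm nor Plk3 reached the 10-count minimum. Cdkn1a, which encodes the kinase inhibitor p21 and is the best known target of p53, had 369, 277 and 638 counts in WT and 730, 460 and 402 in ING4-/-. In CPM these were 38.9, 29.8 and 62.6 against 23.3, 14.6 and 11.9, with no overlap. Its log2 fold change was -1.40 (SE 0.476, adjusted p = 0.0340), -2.01 with the background subtracted (adjusted p = 0.0141) and -1.38 with the population as a block (adjusted p = 0.102). Leaving out each library in turn, it was called in 2 of 6 fits, with adjusted p up to 0.118.

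Of 12 apoptosis targets 4 were called higher and 2 lower, against 7.98% and 56.7% of all genes. Bid, which links death receptors to mitochondria, had a log2 fold change of 1.76 (adjusted p = 0.0336), and Perp, a membrane protein, 2.29 (adjusted p = 0.0418, and 0.192 with the population as a block). The WT counts of Perp, 43, 20 and 24, lay below the estimated background of 43.7, 44.4 and 35.3. With the background subtracted its log2 fold change was 11.15, so the size depends on how background is treated. Aen, a nuclease, had 1.12 (adjusted p = 0.0161), and Ei24, a protein of the endoplasmic reticulum, had 1.47 (adjusted p = 0.00205). The 2 called lower were Pmaip1 and Fas, a death receptor with 138, 72 and 81 counts in WT and 16, 0 and 0 in ING4-/- (-5.84, adjusted p = 0.0227), both named after their values were seen. With the 10-count minimum none of the 4 called higher was called. Leaving out each library in turn, Ei24 was called in 6 of 6 fits, Aen in 4, Perp in 2 and Bid in 1. The 5 DNA repair targets had 0 calls in either direction, with a median of -0.90.

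Of 7 metabolic and antioxidant targets tested 2 were called higher and 2 lower, again against 7.98% and 56.7% of all genes. Gpx1, a glutathione peroxidase, had a log2 fold change of 2.16 (adjusted p = 6.6e-04) and was called in 15 of 16 alternative fits. Sesn1, a sestrin like Sesn2, had 1.13 (adjusted p = 0.0214), and was called in 7 of 16 alternatives, with 0.63 under the 10-count minimum (adjusted p = 0.201) and 0.45 with the background subtracted (adjusted p = 0.360). Ddit4, an inhibitor of mTORC1, had -1.62 (adjusted p = 0.0388, and 0.386 with the population as a block) and was called in 6 of 15 alternatives. Its WT counts of 77, 45 and 31 stood against a background of 37.7, 38.3 and 30.5. With the background subtracted it had -0.78 (adjusted p = 0.640). Of 8 other targets 2 were called higher and 1 lower, against the same shares. Rps27l, a ribosomal protein paralog, had 2.20 (adjusted p = 6.6e-04) and was called in 15 of 16 alternatives, though reads of such genes can be split with near copies. Ak1, an adenylate kinase, had 1.79 (adjusted p = 0.0268) and was called in 6 of 16 alternatives, with adjusted p of 0.131 under the minimum and 0.124 with the background subtracted. With the length trend removed Gpx1 had 0.95 and Rps27l 0.96, both under the fold minimum.

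**Figure D4:**
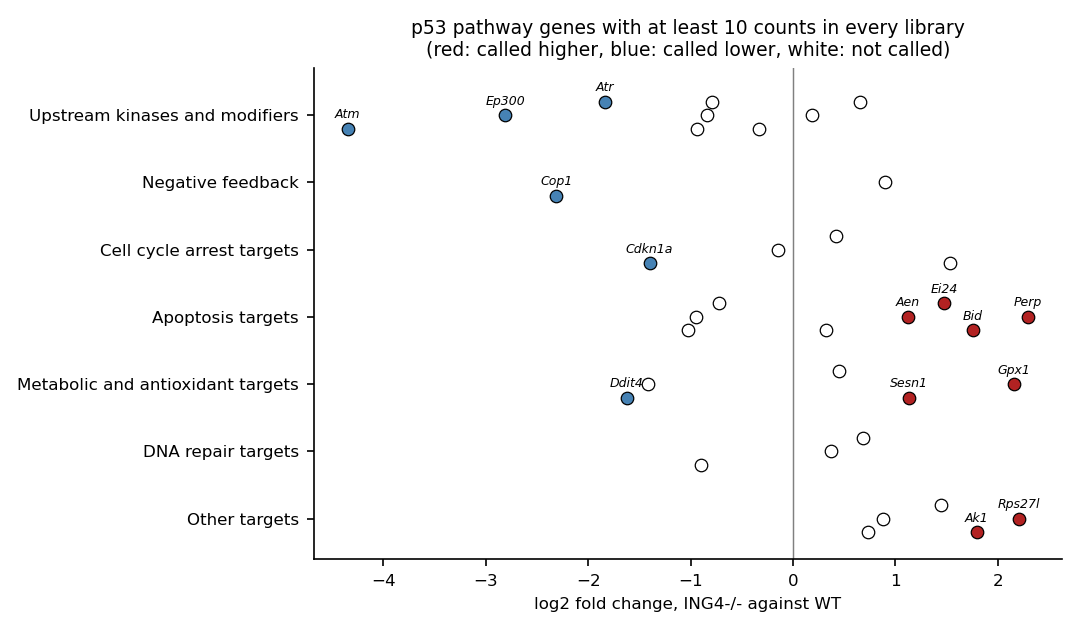
Log2 fold change of ING4-/- against WT (horizontal axis) in the fit of the deposited counts for the 36 pathway genes above the 10-count minimum, by role (vertical axis). Red points are called higher, blue lower and white not called, with Atm, Atr and Ep300 the blue points among the kinases and modifiers.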

How the data were processed

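Bulk RNA-seq libraries of 3 populations from each of WT and ING4-/- mice were grouped by the genotype in the labels. The authors deposited raw read counts per gene, 1 table per library, in the build named in the submitters' processing notes as mm10. Sequencing and first processing were done by a company, and the aligner, counting program and strand setting are not given in the sources used here. Symbols, positions and overlaps came from GENCODE M21 (GRCm38), where 49056 of 49315 identifiers matched. Promoter windows came from RefSeq (GRCm38.p6), where 9 of the 10 genes matched.

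Under R 4.3.3, edgeR 4.0.16 compared the counts after TMM scaling and filterByExpr on genotype, by the quasi-likelihood F test with genotype as the term and Benjamini-Hochberg adjustment over all genes tested. A standard error is the size of the log2 fold change over the square root of F. The population test used 2 terms for population beside genotype. Within-population ratios used log2 CPM with a prior count of 2. Background was the density of counts on 1431 receptor genes, and density times exonic length, rounded, was subtracted in an alternative. DESeq2 1.42.0 was the other count test. Other alternatives were other scalings, filters, a loess length trend (span 0.5), protein-coding genes only, no fold minimum and each library left out. One more, background subtraction with the 10-count minimum, was chosen after seeing the data. The scripts were tested on simulated counts. Python 3.11.15 with pandas 2.3.3 made the tables.

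The deviations of the WT and the ING4-/- library of a population from the mean of their genotype correlated over 9673 genes (r = 0.143 in LT-HSCs, 0.110 in ST-HSCs, 0.121 in MPPs). Population therefore pairs the libraries, and it was a block in an alternative.

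The genes and lists were chosen with earlier results of these data known. Named pathway genes were those called with at least 10 counts in every library, at most 4 per role, and Cdkn1a. Marker lists were summed in CPM, without 1 gene each of the erythroid and B cell lists, which is not reported here. These shorter sums were chosen after seeing the data. A count of 0 allows up to 3 counts, a CPM of at most 0.383 in WT and 0.0843 in ING4-/- libraries. Reads were not tagged by molecule, so this floor covers only the error of counting.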

Additional observations from a re-analysis of the deposited data

Results flagged for a closer look

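Of the 10 genes, 3 had ratios of ING4-/- to WT with different signs in different populations. Each ratio rests on 1 library per genotype, so the differences between populations were not tested. In the order LT-HSCs, ST-HSCs, MPPs, the log2 ratio of Mdm2 was 0.119, 1.17 and -0.456. For Bbc3 it was 3.82, -2.38 and 1.32, with 8 counts in ING4-/- ST-HSCs and WT counts below the background level. For Phlda3 it was -1.68, 1.87 and 1.88, where both LT-HSC libraries had 3 counts or fewer.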

How the results depend on the processing

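Mdm4 kept its direction and its call in every alternative, and it was the only one of the 10 genes that did. The number of the 10 genes called higher, 2 on the deposited counts, was 0 with DESeq2's size factors, 0 with the DESeq2 test, 0 with at least 10 counts in every library, 0 with that minimum and the length trend removed, 0 with the background subtracted, 0 with both the background subtracted and the minimum, and 0 with protein-coding genes only. The DESeq2 test called 2 of the 10 lower, Mdm4 and Zmat3. In the same order the median of the 10 genes was 0.61, 0.61, 0.38, -0.093, -0.0058, -0.082 and 0.62, and it was 1.55 with upper-quartile normalization and 0.74 with the population as a replicate block. Leaving out each library in turn, 1 to 3 of the 10 genes were called higher and 1 to 2 lower, and the median was 0.75 to 1.00.

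For the pathway list the number called higher was 3 with DESeq2's size factors, 4 with the DESeq2 test, 2 with the minimum, 0 with the length trend also removed, 4 with the background subtracted, 2 with the minimum as well and 3 among protein-coding genes. The number called lower was 9 with the minimum, 3 with the length trend also removed, 8 with the background subtracted and 4 with the minimum as well. The median was -1.12 with either use of DESeq2, -0.16 with the minimum, -0.033 with the length trend also removed, -0.27 with the background subtracted and the minimum, and -0.14 with upper-quartile normalization. Leaving out each library in turn, 4 to 8 genes were called higher and 10 to 16 lower.

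Over all genes, 1342 were called higher with DESeq2's size factors, 1518 with the DESeq2 test, 803 with the minimum, 380 with the length trend also removed, 1106 with the background subtracted, 321 with the minimum as well, 1145 among protein-coding genes and 4556 with upper-quartile normalization. Called lower were 936 with the minimum, 462 with the length trend also removed, 7650 with the background subtracted, 472 with the minimum as well and 7440 among protein-coding genes. Part of each drop under a filter comes from fewer genes tested, and the causes of the other shifts were not tested. Across populations 4 genes were called by the DESeq2 test, and 1 with the minimum, 1 with the length trend also removed and 1 with the background subtracted and the minimum, none of them one of the 10.

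The log2 fold change of Mdm2 changed sign in 8 fits, to -0.070 with DESeq2's size factors, -0.071 with the DESeq2 test, -0.22 with the minimum, -0.093 with the length trend also removed, -0.21 with the background subtracted, -0.28 with the minimum as well, -0.068 among protein-coding genes and -0.0040 without ING4-/- replicate 2 (ST-HSCs), the lowest of the fits that left out a library, the highest being 0.45. With the length trend removed Bax turned to -0.31 and Gadd45a to -0.044. The replicate block changed no call among the 10 genes, and among the other named genes it ended those of Cdkn1a, Ddit4, Perp and Ing4. Bbc3 and Phlda3 could not be tested once the background was subtracted, nor Zmat3 and they with the minimum. WT depth and background limit what can be said of Bbc3, Phlda3, Zmat3 and Gadd45a, for which at least 1 WT library lay below its background level, and no library repeats a population within a genotype.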
